A study of Mus musculus with 14 samples.

Results

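The C-type lectin receptors described here are 10 of the 24982 genes counted in colonic macrophages of mice with and without the IL-10 receptor, and they were chosen by name. They are the Dectin and Mincle family receptors *Clec4d*, *Clec4e*, *Clec4n*, *Clec5a*, *Clec7a* and *Clec9a* (in the deposited counts CLEC4D, CLEC4E, CLEC4N, CLEC5A, CLEC7A and CLEC9A), with their relatives *Clec4a1*, *Clec4a2*, *Clec4a3* and *Clec12a* (CLEC4A1, CLEC4A2, CLEC4A3 and CLEC12A), some of which inhibit the cell. Each library was made from the sorted macrophages of a single C57BL/6 mouse, 5 weeks old, and held the CD64+ CD11b+ MHCII+ cells of the colon and cecum lamina propria that were negative for Ly6C, Ly6G and CD103. All of the mice carried *Cdcs1*, a locus that makes mice susceptible to colitis, and were kept under specific pathogen-free conditions. WT mice carried *Cdcs1* alone, IL10RAKO mice *Cdcs1* with *Il10ra* -/-, DKO mice *Cdcs1* with *Il10ra* -/- and *Ccr2* -/-, and the CCR2KO mouse *Cdcs1* with *Ccr2* -/-. The knockouts were constitutive, so every cell of these mice lacked the gene and not the macrophages alone. Of the 14 libraries, 4 WT, 4 IL10RAKO and 4 DKO entered the comparisons, while WT mouse 11 and CCR2KO mouse 6, which the authors' own normalized table does not hold, are given beside them.

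C-type lectin receptors sit on the surface of myeloid cells and bind sugars and lipids of fungi, mycobacteria and dying cells. Activating members signal through the kinase Syk, either by a tyrosine motif in their own tail (a hemITAM) or by pairing with the adaptors FcRgamma (*Fcer1g*) or DAP12 (*Tyrobp*), and Syk acts through a complex of CARD9, BCL10 and MALT1 on NF-kappaB. Inhibitory members hold an immunoreceptor tyrosine-based inhibitory motif (ITIM) in the tail, which recruits phosphatases such as SHP-1 (*Ptpn6*). Intestinal macrophages meet microbial sugars continuously and are kept quiescent in large part by IL-10.

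The coding sequences of GENCODE vM21 (GRCm38) were searched for both motifs in the first 60 residues. Receptors that pair with an adaptor need no such motif, so this search cannot check the label "activating". The bases below are those that code the motif nearest the start of the protein, in the direction of transcription, with the codon of the tyrosine in capitals, and they are shown for the receptors known to signal through such a motif of their own. The ITIM was read as I, L, V or S, any residue, Y, any 2 residues, and I, L or V, and the hemITAM as Y, any 2 residues and L.
Clec4a2, ITIM at tyrosine 7: atcactTATgcagaagtg
Clec12a, ITIM at tyrosine 7: attgttTATgcaaatctc
Clec7a, hemITAM at tyrosine 15: TATactcaatta
Clec9a, hemITAM at tyrosine 7: TATacctctctt
*Clec4a1*, *Clec4d*, *Clec4e* and *Clec5a* matched neither pattern in these residues, and *Clec4a3* (both patterns, at tyrosine 53) and *Clec4n* (the ITIM pattern, at tyrosine 41) matched further in. The *Clec12a* stretch also matches the shorter hemITAM pattern, so the patterns alone do not sort the members by kind. *Clec4a2* (Dcir) and *Clec12a* (Micl) are known as inhibitory receptors, so the set holds both kinds.

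The targeted genes matched the labels in each of the 12 mice. *Il10ra* ranged from 217 to 379.6 CPM (reads scaled to library size with the trimmed mean of M-values, TMM) in WT mice and from 3.41 to 11.2 in IL10RAKO and DKO mice. *Ccr2* ranged from 361 to 702 CPM in WT and IL10RAKO mice and from 3.92 to 6.68 in DKO mice. Between 13085287 and 21216468 reads were counted per library, so that 3 reads, taken as the limit of detection, equal 0.141 to 0.229 CPM and every member except *Clec9a* had 137 or more reads in each of these libraries. These limits cover counting error only. All 9 macrophage markers searched for were present, and their summed level lay between 19280 and 24180 CPM in WT, between 26400 and 35130 in IL10RAKO and between 21860 and 28940 in DKO mice, most of it *H2-Ab1*. Of the 9, *Fcgr1* and *H2-Ab1* rose in IL10RAKO mice, and in DKO mice *Mertk* rose while *Adgre1* (-1.05, adjusted p = 0.0238) and *Cx3cr1* (-1.21, adjusted p = 0.0162) fell. The sum of the monocyte markers lay between 152 and 214 CPM in WT, between 438 and 1109 in IL10RAKO and between 519.9 and 786 in DKO mice, and 3 of 6, *Ly6c2*, *Plac8* and *Treml4*, rose in each knockout although the cells had been sorted as Ly6C-. Neutrophil markers summed to 2.70 to 11.9, 13.2 to 133.7 and 69.4 to 97.4 CPM in the same order, and 5 of 8 rose, while *Ly6g* stayed below 1 CPM in every library and *S100a9* and *Camp* had no read in the 4 WT mice. Fibroblast markers summed to 294 to 577 CPM in WT mice and at most 67.0 in the knockouts, and 6 of 6 fell. The B cell sum had its lowest value at 326 CPM and its highest at 976 CPM among WT mice. Among IL10RAKO mice these were 249 and 748 CPM, and among DKO mice 350 and 991 CPM. Of 3 B cell markers 0 rose or fell in either knockout. Of 3 plasmacytoid dendritic cell markers 1, *Siglech*, fell in IL10RAKO (-3.72, adjusted p = 0.00102) and DKO mice (-4.77, adjusted p = 0.000205). The others did not pass, with 0.15 (adjusted p = 0.906) and 1.67 (0.0993) for *Ccr9* and -2.49 (0.200) and -1.09 (0.556) for *Cox6a2*. The part of B cell RNA in the lectin levels was not tested. In RNA from sorted pools, fewer cells of a type and less RNA per cell cannot be told apart.

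Loss of the IL-10 receptor was compared with WT first. The paper reports spontaneous colitis in IL10RAKO, less severe colitis in DKO and no histologic signs of it in WT mice. Genotype and gut inflammation could thus not be separated in these comparisons. The WT mice of that histology were heterozygous for *Il10ra* and *Ccr2*, while the sequenced WT mice carried *Cdcs1* alone. The part of inflammation in the differences was not tested. All 10 lectin genes passed the filter on low counts, and with edgeR's quasi-likelihood test 7 rose and 1 fell in IL10RAKO mice at an adjusted p-value under 0.05. Over the 13136 genes tested, 8.7% rose and 7.1% fell. In 8 of 10 lectin genes the 4 IL10RAKO and 4 WT mice did not overlap, against 18.2% of all tested genes. In DKO mice 7 rose and 2 fell, against 9.23% and 9.22% of all tested genes, and the groups did not overlap in 9 of 10, against 22.2%. The median log2 fold change of the 10 genes was 1.46 in IL10RAKO and 1.72 in DKO mice, and over all tested genes it was -0.07 and -0.06. Both comparisons share the WT mice. Without TMM scaling the median of all genes lay at -0.38 and -0.32, and the split of all calls went from 1143 higher and 933 lower to 651 and 2084 in IL10RAKO, and from 1213 and 1211 to 748 and 2140 in DKO mice. On that scale 6 of the lectin genes rose and 2 fell in IL10RAKO, and 7 rose and 2 fell in DKO mice.

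**Figure D1:**
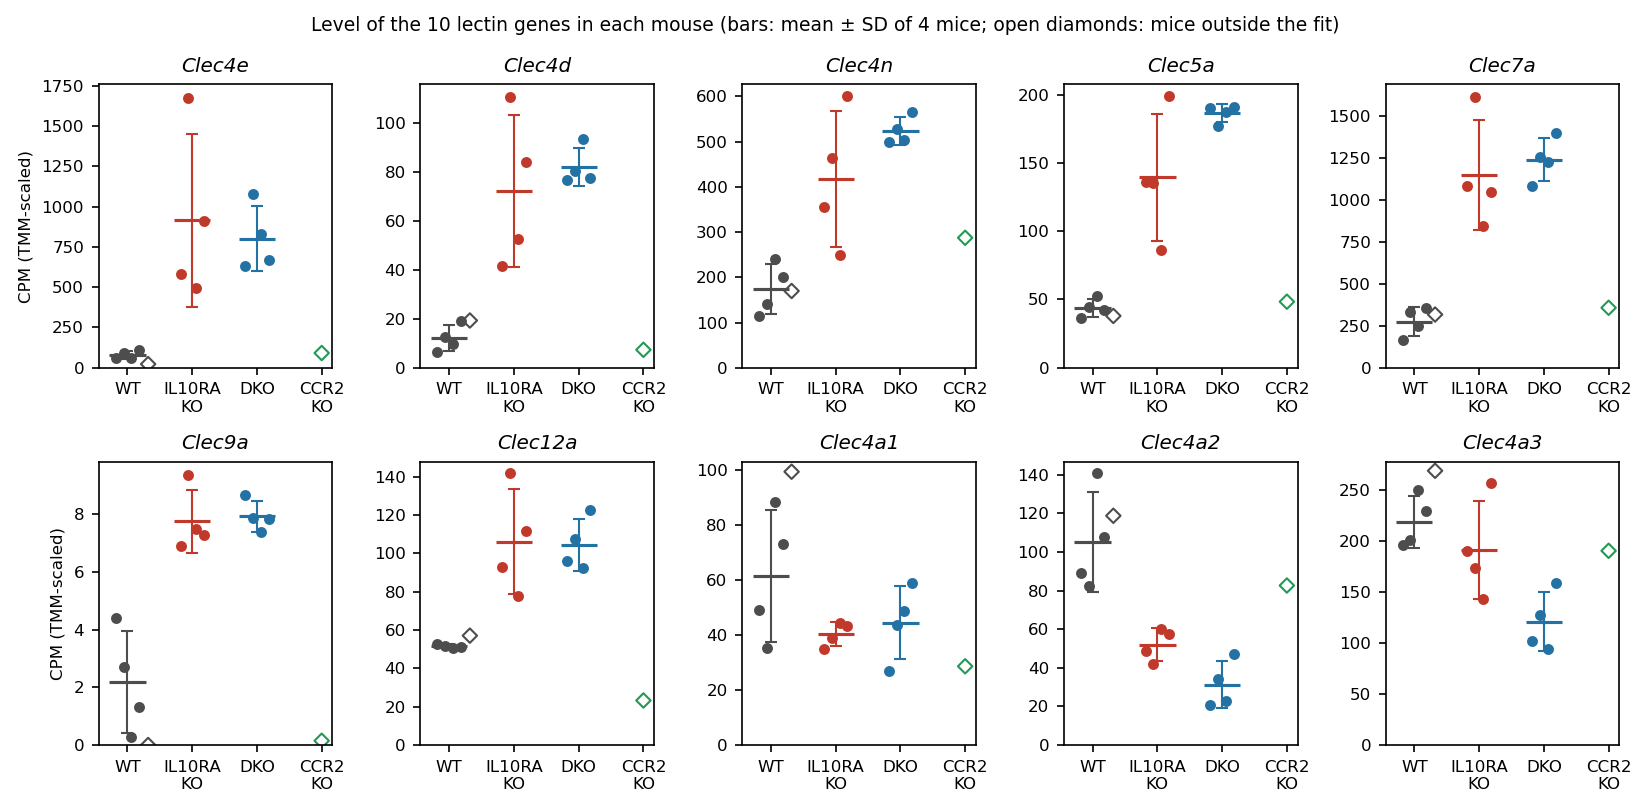
Level of each of the 10 lectin genes (vertical axis, TMM-scaled CPM, starting at 0 and scaled separately in each panel) by genotype, with 1 point per mouse, the mean and SD of the 4 mice in each comparison, and open diamonds for WT mouse 11 and CCR2KO mouse 6. The IL10RAKO and DKO mice lie above every WT mouse of the comparison in the first 7 panels, and the highest point, *Clec4e* in IL10RAKO mouse 2, is at 1674 CPM.

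Of the 10 genes *Clec4e* and *Clec4d* had the highest log2 fold changes in both knockouts. *Clec4e* encodes Mincle, the receptor for mycobacterial cord factor and for SAP130 of dying cells. Its 4 WT mice had 58.6, 89.5, 57.8 and 112.2 CPM, the IL10RAKO mice 579.5, 1674, 495 and 912 CPM, and the DKO mice 628, 1075, 828 and 671 CPM. The lowest knockout mouse, at 495 CPM, lay far above the highest WT mouse, and IL10RAKO mouse 2 stood above the rest. The log2 fold change was 3.53 ± 0.380 (SE, n = 4 against 4, adjusted p = 2.59e-05) in IL10RAKO and 3.33 ± 0.377 (adjusted p = 3.34e-05) in DKO mice. *Clec4d* encodes Mcl, which pairs with Mincle on the cell surface. It was found at 6.54, 12.6, 9.86 and 19.1 CPM in WT mice, at 41.7, 110.7, 52.7 and 84.0 CPM in IL10RAKO mice and at 76.9, 80.5, 93.6 and 77.6 CPM in DKO mice. The groups did not overlap, and the log2 fold changes were 2.59 ± 0.337 (adjusted p = 0.000127) and 2.78 ± 0.340 (adjusted p = 6.23e-05).

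*Clec4n* encodes Dectin-2, a receptor for fungal mannans that signals through FcRgamma. It was already abundant in WT mice, at 115.1, 142, 239.6 and 200.1 CPM, and reached 356, 464, 250.3 and 602 CPM in IL10RAKO and 498.5, 527, 503 and 565 CPM in DKO mice. IL10RAKO mouse 7 was only just above the highest WT mouse, while the DKO mice lay close together. The log2 fold change was 1.26 ± 0.263 (adjusted p = 0.00439) in IL10RAKO and 1.59 ± 0.265 (adjusted p = 0.000788) in DKO mice.

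Neutrophils also carry Mincle, Mcl and Clec5a, and 5 of 8 neutrophil markers rose in each knockout, as these genes did. IL10RAKO mouse 7, whose neutrophil markers summed to 13.2 CPM against 11.9 in WT mouse 13, had 495 CPM of *Clec4e* and 52.7 CPM of *Clec4d*, both above every WT mouse. In IL10RAKO mouse 2 the neutrophil markers (133.7 CPM), the monocyte markers (1109 CPM), *Clec4e* and *Clec4d* were all the highest of the 12 mice. *Clec7a* (1617 CPM), *Clec12a* (141.9 CPM) and *Clec9a* (9.34 CPM) were also highest in this mouse. *Clec5a* and *Clec4n* did not follow this order. They had 135 and 464 CPM in IL10RAKO mouse 2. Both were highest in IL10RAKO mouse 8 (199 and 602 CPM), whose neutrophil markers summed to 45.8 CPM. The part of neutrophil or monocyte RNA in the differences of any of these genes was not tested.

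*Clec5a* encodes Mdl-1, which signals through DAP12 and binds dengue virus. It was measured at 36.6, 44.4, 52.4 and 42.1 CPM in WT, at 136, 135, 86.5 and 199 CPM in IL10RAKO and at 190.5, 177, 187 and 191 CPM in DKO mice. All knockout mice were above all WT mice, with log2 fold changes of 1.67 ± 0.213 (adjusted p = 0.000108) and 2.09 ± 0.216 (adjusted p = 1.61e-05). The 4 DKO mice differed little from each other (coefficient of variation 3.43%), whereas the IL10RAKO mice varied more widely (33.2%).

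*Clec7a* encodes Dectin-1, the receptor for beta-glucans of fungal cell walls. WT mice had 163, 331, 252 and 355 CPM, IL10RAKO mice 1083, 1617, 848.5 and 1050 CPM and DKO mice 1082, 1256, 1229 and 1401 CPM. No knockout mouse came near the WT range, and the log2 fold change was 2.06 ± 0.248 (adjusted p = 6.80e-05) in IL10RAKO and 2.17 ± 0.249 (adjusted p = 3.70e-05) in DKO mice. The annotation lists *Clec7a* as a polymorphic pseudogene, a class for genes that are intact in some mouse strains only. In the GRCm38 reference its longest coding sequence ran from start to stop codon, with 244 residues. The sequence in these mice was not examined.

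*Clec12a*, the ITIM-bearing Micl, rose as well. Its level was 52.7, 51.8, 50.6 and 51.3 CPM in WT mice, 93.0, 141.9, 77.9 and 112 CPM in IL10RAKO mice and 96.1, 107.5, 92.1 and 122.4 CPM in DKO mice. WT mice were nearly identical and none reached the knockout range, and the log2 fold changes were 1.04 ± 0.180 (adjusted p = 0.00120) and 1.02 ± 0.180 (adjusted p = 0.00120).

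*Clec9a*, known as the receptor for actin filaments of dead cells on conventional type 1 dendritic cells (cDC1), was the least abundant member, with 7 to 92 reads per WT mouse and 99 to 158 per knockout mouse. WT mice had 4.39, 2.70, 0.290 and 1.33 CPM, IL10RAKO mice 6.89, 9.34, 7.48 and 7.27 CPM and DKO mice 8.67, 7.84, 7.38 and 7.81 CPM. WT mice spread over a wide range below the knockout mice, and the log2 fold changes of 1.83 ± 0.533 (adjusted p = 0.0314) and 1.86 ± 0.533 (adjusted p = 0.0255) were the least certain of the 7 increases. The call was lost in IL10RAKO mice when WT mouse 13 (adjusted p = 0.0787), IL10RAKO mouse 1 (0.0554), mouse 2 (0.0740) or mouse 8 (0.0593) was left out, and in DKO mice without WT mouse 13 (0.0660), DKO mouse 3 (0.0535) or mouse 9 (0.0539). With WT mouse 11 added, which had no read of *Clec9a*, the log2 fold changes were 2.14 (adjusted p = 0.106) and 2.18 (adjusted p = 0.0942). The sum of the 7 cDC1 markers lay between 174 and 291 CPM in WT, between 190 and 276 in IL10RAKO and between 206 and 225 in DKO mice. Of these, *Xcr1* rose in IL10RAKO mice (log2 fold change 2.45, adjusted p = 0.000988; 1.12 and 0.0677 in DKO) and *Batf3* fell in both knockouts (-0.66 and -1.42), and the part of dendritic cells in the *Clec9a* difference was not tested. The *Clec9a* and *Clec1b* annotations overlap, with 3.23% of the *Clec9a* 75-base stretches also found in *Clec1b*, which had at most 29 reads in a library.

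Of the 3 Dcir family genes 1 fell in IL10RAKO and 2 fell in DKO mice. *Clec4a2*, the ITIM-bearing Dcir, had 89.3, 82.6, 140.7 and 107.7 CPM in WT mice, 48.5, 42.0, 60.3 and 57.5 CPM in IL10RAKO mice and 20.8, 34.1, 22.8 and 47.2 CPM in DKO mice. Every knockout mouse was below every WT mouse, and *Clec4a2* fell by 1.01 ± 0.256 on the log2 scale in IL10RAKO (adjusted p = 0.0149) and by 1.75 ± 0.261 in DKO mice (adjusted p = 0.000332). Without IL10RAKO mouse 2 the former was -0.92 with an adjusted p-value of 0.0522. Of the 75-base stretches of *Clec4a2*, 3.24% occur in another gene, mostly in *Clec4a4*.

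*Clec4a3*, a Dcir relative, was measured at 195.9, 201, 249.8 and 229 CPM in WT mice, 190.5, 173, 143 and 257 CPM in IL10RAKO mice and 102, 128, 94.5 and 159 CPM in DKO mice. IL10RAKO mice overlapped with WT (log2 fold change -0.20 ± 0.203, adjusted p = 0.568), whereas DKO mice lay below WT and the gene fell by 0.86 ± 0.204 (adjusted p = 0.00919). *Clec4a1*, also of this family, had 49.0, 35.2, 88.6 and 73.0 CPM in WT, 34.9, 38.9, 44.2 and 43.3 CPM in IL10RAKO and 26.9, 43.7, 48.7 and 58.8 CPM in DKO mice. These ranges overlapped, with log2 fold changes of -0.61 ± 0.276 (adjusted p = 0.160) and -0.46 ± 0.276 (adjusted p = 0.272). Without TMM scaling *Clec4a1* passed in IL10RAKO mice, at -0.93 (adjusted p = 0.0324).

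The added loss of *Ccr2*, by which monocytes leave the bone marrow and enter tissues, was addressed by comparing DKO with IL10RAKO mice. With edgeR 0 of 10 lectin genes passed, and with DESeq2 also 0, against 0.0457% of all tested genes (6 genes), and the mice of the groups overlapped in all 10, against no overlap in 2.41% of all tested genes. At an unadjusted p under 0.05, edgeR gave 2 of 10, both lower in DKO mice, against 2.95% of all tested genes (388 genes). These were *Clec4a2*, with a log2 difference of -0.74 (95% confidence interval -1.29 to -0.19, unadjusted p = 0.0120, adjusted p = 1.00), and *Clec4a3*, with -0.66 (-1.10 to -0.22, unadjusted p = 0.00579, adjusted p = 1.00).

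For the other 8 genes the 95% intervals of the log2 difference give the differences between these genotypes that the data leave possible. They ran from -0.93 to 0.54 for *Clec4e*, from -0.49 to 0.86 for *Clec4d*, from -0.23 to 0.88 for *Clec4n* and from -0.02 to 0.86 for *Clec5a*. *Clec7a* lay between -0.40 and 0.62, *Clec12a* between -0.40 and 0.36, *Clec4a1* between -0.45 and 0.73 and *Clec9a*, with its few reads, between -1.06 and 1.12.

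**Figure D2:**
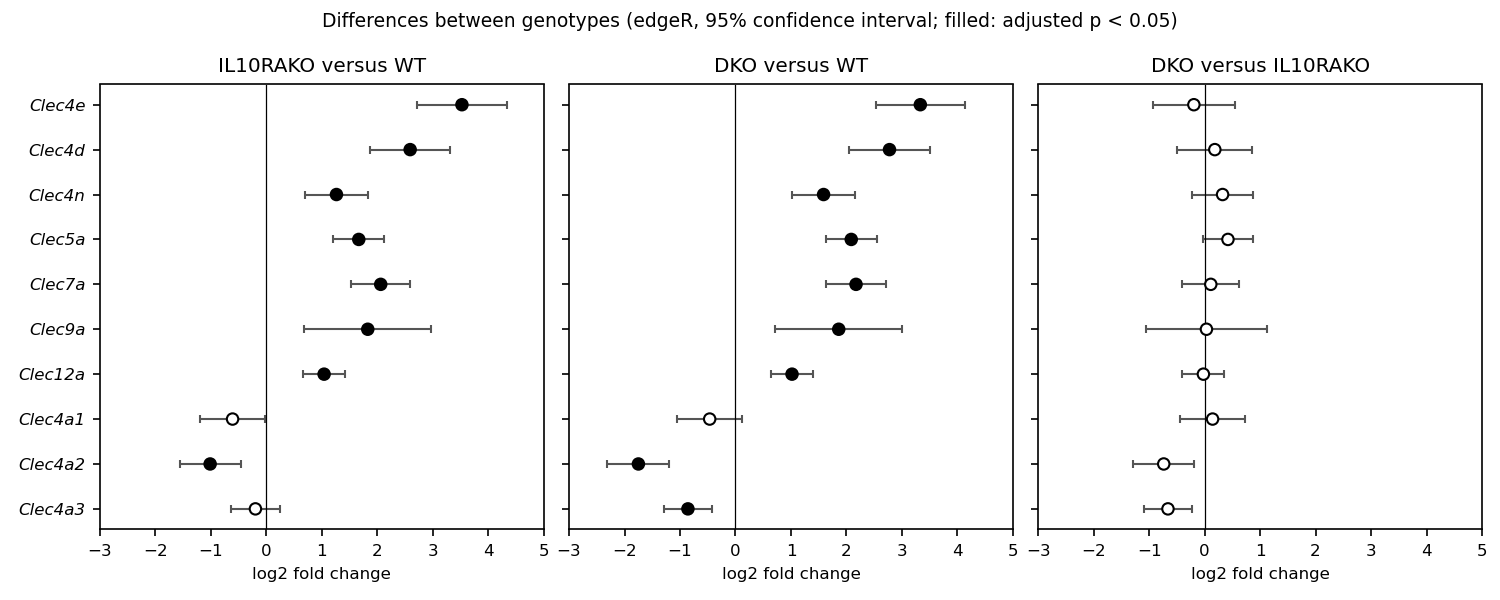
Log2 fold change of each lectin gene (horizontal axis) in the 3 comparisons, with 95% confidence intervals from edgeR and filled points for an adjusted p-value under 0.05. The upper 7 genes are higher in both knockouts than in WT, *Clec4a2* is lower in both, and no point is filled between DKO and IL10RAKO.

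The order of the 10 genes was compared as CPM per kb of exon. In WT mice the Dcir relative *Clec4a3* was the most abundant (165 ± 19.1, SD, n = 4), followed by *Clec4n* (123 ± 39.6) and *Clec7a* (104 ± 32.8), and the ranges of neighbours in these 3 overlapped. *Clec4a1* (39.5) and *Clec4a2* (35.9) came next and were not separated from each other, then *Clec4e* (16.0), *Clec5a* (11.4), *Clec12a* (9.33) and *Clec4d* (7.52), each overlapping with the next. *Clec9a* was last (0.661) and below all others.

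In both knockouts *Clec7a* led the order per kb. It stood at 436 ± 124 in IL10RAKO mice, ahead of *Clec4n* (294 ± 106), *Clec4e* (184 ± 108) and *Clec4a3* (144 ± 36.3), with overlap between neighbours. The same 4 genes stood in that order in DKO mice at 471 ± 49.6, 369 ± 21.6, 161 ± 40.7 and 91.0 ± 21.9, and there none of these ranges overlapped. *Clec4e* thus stood at the 6th place in WT mice and at the 3rd in both knockouts, and *Clec4a2* went from the 5th place to the 9th.

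The summed level per kb of the 10 genes was 512 ± 99.3 in WT, 1205 ± 336 in IL10RAKO and 1252 ± 113 in DKO mice. *Clec4a1*, *Clec4a2* and *Clec4a3* together made up 47.3% ± 5.25 of it in WT, 16.2% ± 3.71 in IL10RAKO and 10.3% ± 1.73 in DKO mice. *Clec4d*, *Clec4e* and *Clec4n* accounted for 28.1% ± 2.91, 42.4% ± 5.61 and 46.5% ± 2.55 in the same order, and *Clec7a*, *Clec9a* and *Clec12a* for 22.4% ± 5.17, 38.3% ± 5.16 and 39.3% ± 1.29. The ratio of *Clec4n* to *Clec4a3* per kb went from 0.731 ± 0.156 in WT through 2.02 ± 0.405 in IL10RAKO to 4.18 ± 0.733 in DKO mice, without overlap between any of the 3 genotypes. The ratio of *Clec4e* to *Clec4d*, the Mincle and Mcl pair, was 2.24 ± 0.471 in WT, 3.97 ± 0.854 in IL10RAKO and 3.14 ± 0.778 in DKO mice, and the last of these overlapped with both others. The ratio of *Clec4a3* to *Clec4a2* was 4.70 ± 0.596 in WT, 8.21 ± 2.04 in IL10RAKO and 8.91 ± 1.46 in DKO mice, and the IL10RAKO mice overlapped with both others. Only these pairs of the 10 genes were compared, without a test. How many other pairs separate the genotypes was not counted, and for each gene alone the DKO and IL10RAKO mice overlapped.

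**Figure D3:**
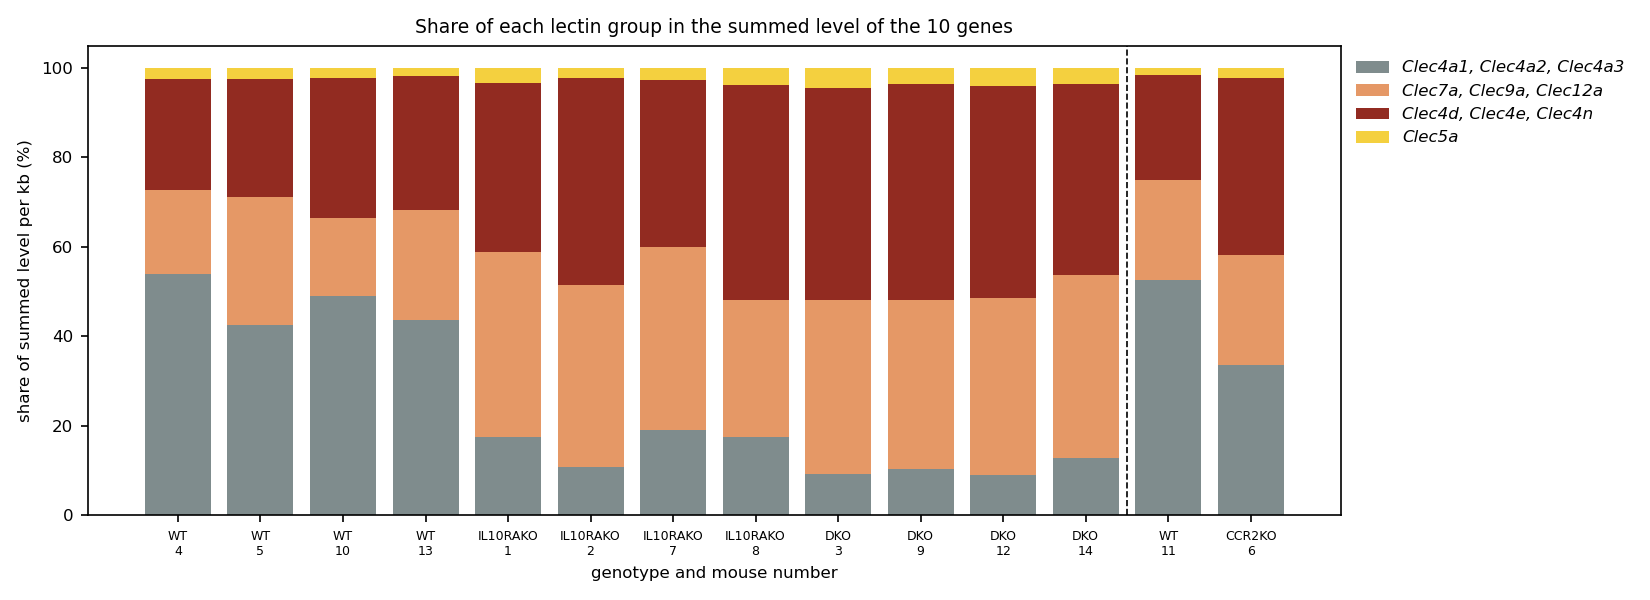
Share of 4 lectin groups in the summed level of the 10 genes per kb of exon (vertical axis, percent) in each of the 14 mice (horizontal axis, genotype and mouse number), with WT mouse 11 and CCR2KO mouse 6 right of the dashed line. The share of *Clec4a1*, *Clec4a2* and *Clec4a3*, at the bottom of each bar, is 42.5% to 53.9% in the 4 WT mice and at most 19.0% in the 8 knockout mice of the comparisons.

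All 10 genes lie on chromosome 6 (GRCm38). Positions 122921848 to 123289870 hold 9 Clec4 genes, of which 8 passed the filter on low counts and 6 are among the 10. Read in order along the chromosome, *Clec4a1*, *Clec4a3*, *Clec4a4*, *Clec4b1* and *Clec4a2* had negative log2 fold changes in both knockouts, and *Clec4n*, *Clec4d* and *Clec4e*, which follow, had positive ones. Of the 8 genes, 3 rose and 2 fell in IL10RAKO and 3 rose and 3 fell in DKO mice. *Clec4b1*, a lectin of dendritic cells that is not among the 10, showed the strongest decrease of the row, with -3.07 ± 0.317 (adjusted p = 1.69e-05) and -4.54 ± 0.345 (adjusted p = 1.47e-06). Positions 129342691 to 129472779 hold *Clec12a*, *Clec12b*, *Clec1b*, *Clec9a*, *Clec1a* and *Clec7a*, of which 5 passed the filter and 3, the members *Clec12a*, *Clec9a* and *Clec7a*, rose in each knockout. *Clec5a* lies apart at 40574894 to 40585821.

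**Figure D4:**
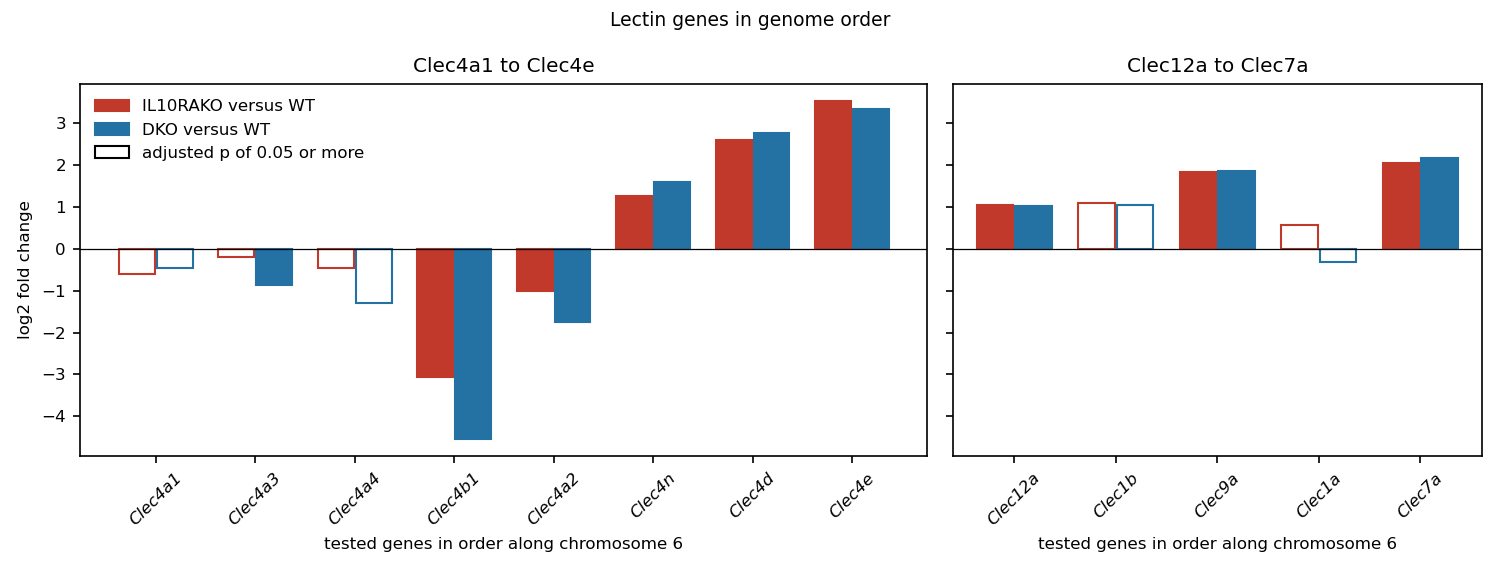
Log2 fold change against WT (vertical axis) of the tested lectin genes in their order along chromosome 6 (horizontal axis, not to scale), in IL10RAKO and DKO mice, with open bars for an adjusted p-value of 0.05 or more. In the left panel the bars of the first 5 genes point down and those of *Clec4n*, *Clec4d* and *Clec4e* point up.

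*Clec4d* and *Clec4e* are neighbours on opposite strands and both rose in each knockout, so the 250 bases before their start sites are shown, from the RefSeq promoters of GRCm38.p6, in the direction of each gene. Capitals mark the letters TTNCNNAA, a core of C/EBP sites, found on either strand.
Clec4d, chr6:123261857-123262106, plus strand: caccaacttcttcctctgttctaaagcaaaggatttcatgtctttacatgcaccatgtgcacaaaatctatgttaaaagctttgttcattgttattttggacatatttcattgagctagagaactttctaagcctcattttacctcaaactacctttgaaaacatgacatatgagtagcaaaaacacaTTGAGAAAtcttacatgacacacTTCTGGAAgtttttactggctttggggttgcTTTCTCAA
Clec4e, chr6:123289872-123290121, minus strand: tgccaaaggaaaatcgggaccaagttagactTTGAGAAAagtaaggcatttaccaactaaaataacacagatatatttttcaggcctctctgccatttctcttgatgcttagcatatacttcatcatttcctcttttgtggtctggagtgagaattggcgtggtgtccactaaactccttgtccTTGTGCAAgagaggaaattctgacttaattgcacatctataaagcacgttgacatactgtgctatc
Of the 10 genes 9 have a promoter entry, *Clec4n* being the one without. These letters occurred in 5 of the 9 (*Clec4a2*, *Clec4d*, *Clec4e*, *Clec5a* and *Clec12a*), against 33.2% of the 10311 tested genes with an entry and 40.3% of all 27025. The NF-kappaB letters (GGG, any 5 bases, CC) were in 1 of 9 (*Clec4a1*) and in 65.8% of the tested genes, the AP-1 letters TGANTCA in 1 (*Clec12a*; 5.82%) and the STAT letters TTCNNNGAA in 1 (*Clec4a2*; 7.24%). The PU.1 letters GAGGAAGT (3.22%) and the IRF letters (GAAA, any 2 bases, GAAA; 3.51%) were in 0 of 9. STAT and C/EBP letters can overlap. The entries of *Clec4a2* and *Clec12a* start 16262 and 7553 bases inside the annotated genes, so these matches describe letters only.

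The genes through which these receptors signal were counted in the same way. Of 30 signalling genes, all of which passed the filter on low counts, 9 rose and 1 fell in IL10RAKO mice and 8 rose and 1 fell in DKO mice, where over all tested genes 8.7% rose and 7.1% fell and 9.23% rose and 9.22% fell. The median log2 fold changes were 0.42 and 0.27. *Malt1*, the protease of the CARD9 complex, rose most in size (2.23 ± 0.326, adjusted p = 0.000328 in IL10RAKO; 2.16 ± 0.325, adjusted p = 0.000351 in DKO). Its partner *Bcl10* rose by 0.53 ± 0.122 (adjusted p = 0.00858) and 0.45 ± 0.122 (adjusted p = 0.0182), and *Card9* passed in DKO mice (1.21 ± 0.362, adjusted p = 0.0319) with 0.97 ± 0.361 (adjusted p = 0.0883) in IL10RAKO mice.

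Of the adaptors, *Fcer1g* rose in IL10RAKO mice (0.64 ± 0.193, adjusted p = 0.0360) and had 0.46 (adjusted p = 0.120) in DKO mice. *Tyrobp* had 0.47 (adjusted p = 0.147) and 0.13 (0.714), and *Hcst*, which encodes DAP10, 0.31 (0.363) and -0.11 (0.769). The kinase gene *Syk* had 0.23 (adjusted p = 0.637) and 0.16 (0.755), and the phosphatase gene *Ptpn6* 0.43 (0.179) and 0.37 (0.240). Among the other genes of the list with small adjusted p-values were *Cybb*, the catalytic subunit of the NADPH oxidase (0.90, adjusted p = 0.00102, and 1.17, adjusted p = 0.000113) and the ubiquitin ligase gene *Traf6* (1.03, 0.00266, and 1.05, 0.00203). Between DKO and IL10RAKO mice 0 of 30 passed with edgeR or DESeq2, and 0 had an unadjusted p under 0.05 in either.

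Other C-type lectin genes did not share one direction. Of 27 listed, 24 passed the filter on low counts, of which 5 rose and 6 fell in IL10RAKO and 5 rose and 10 fell in DKO mice, beside the same shares of all tested genes (8.7% and 7.1%, 9.23% and 9.22%). Their median log2 fold changes were -0.57 and -1.06. *Klrb1b*, an inhibitory receptor gene of the NKR-P1 family, rose by 1.87 ± 0.184 (adjusted p = 1.05e-05) and 1.67 ± 0.183 (adjusted p = 2.65e-05). *Olr1*, which encodes the oxidized LDL receptor and lies near *Clec7a*, rose by 3.50 ± 0.530 (adjusted p = 0.000427) in IL10RAKO mice. *Clec10a*, a galactose-binding lectin of macrophages, fell by 1.80 ± 0.244 (adjusted p = 0.000155) in DKO mice, with a value of -0.57 ± 0.237 (adjusted p = 0.122) in IL10RAKO mice. Its difference between DKO and IL10RAKO was -1.22 ± 0.241 (adjusted p = 0.208). In that comparison edgeR called 0 of 24 and DESeq2 called 2, and 5 had an unadjusted p under 0.05 in edgeR, against 2.95% of all tested genes.

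The levels were also followed across the 12 mice as log2 CPM, given as a description because the genotypes set much of each correlation. *Clec4e* and *Clec4d* had a Pearson correlation of 0.979 over 12 libraries and 0.842 after each genotype's mean was removed, and *Clec4n* and *Clec5a* 0.965 and 0.867. *Clec4a2* and *Clec4a3* had 0.865 and 0.676, and *Clec4a2* and *Clec4e* -0.799 and -0.229. The genes most like *Clec4e* were *Txnrd1*, *Hilpda* and *Ccrl2* (0.987 each), those most like *Clec4d* were *Slc7a11* (0.988), *Nampt* (0.987) and *Olr1* (0.977), and those most like *Clec7a* were *Piga* (0.985), *Nampt* (0.983) and *Cd86* (0.982). *Clec5a* was closest to *Ak4* (0.991), *Pla2g7* (0.989) and *1700071M16Rik* (0.986), and *Clec4n* to *Vnn3* (0.975), *Fpr1* (0.972) and *1700071M16Rik* (0.971). *Clec12a* was closest to *Gm15056* (0.980), *Ly6c2* (0.973) and *Tlr2* (0.966), and *Clec9a* to *Ccl22* (0.973), *Il12a* (0.972) and *Ifi209* (0.967). *Clec4a2* was closest to *Kdelc2* (0.967), its neighbour *Clec4b1* (0.956) and *Selenop* (0.955). *Clec4a1* was closest to *Cxcl14* (0.955), *Plcb3* (0.948) and *Abcg2* (0.939), and *Clec4a3* to *Cd300ld* (0.961), *Paox* (0.956) and *Prkra* (0.917). After each genotype's mean was removed, the correlations with these closest genes lay between 0.769 (*Clec12a* and *Tlr2*) and 0.96 (*Clec4a1* and *Plcb3*). *Ak4* and *Gm15056* were below the limit of detection in WT mice on average (0.0 and 0.029 CPM).

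CCR2KO mouse 6, the only mouse lacking *Ccr2* alone, was not tested. Its monocyte markers summed to 440.3 CPM, against 152 to 214 CPM in the 4 WT mice. Its neutrophil markers summed to 33.7 CPM, against 2.70 to 11.9 CPM. The part of monocyte or neutrophil RNA in its levels was not tested. *Clec4e* (91.4 CPM), *Clec4d* (7.36 CPM), *Clec5a* (48.4 CPM) and *Clec4a2* (82.65 CPM) lay within the range of the 4 WT mice. *Clec4a1* (28.6 CPM), *Clec4a3* (190.3 CPM), *Clec12a* (23.3 CPM) and *Clec9a* (3 reads) were below that range and *Clec4n* and *Clec7a* above it. Of the 7 genes that rose in both knockouts, *Clec4n* reached the range of the IL10RAKO mice in this mouse (287.4 CPM against 250.3 in IL10RAKO mouse 7), and the other 6 stayed below the IL10RAKO and DKO ranges.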

How the data were processed

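Colonic lamina propria macrophages were sorted from single mice and cDNA was made with SmartSeq v4. The authors aligned paired-end reads with STAR 2.5.1b to mm10, and the deposited counts are raw reads per gene for 24982 genes in 14 libraries. They also deposited edgeR 3.34.0 pseudocounts, a score adjusted to a common library size, for 13338 genes in 12 libraries; over the members' values with 100 or more reads these stayed within 0.994 to 1.00 times a constant multiple of the CPM computed here and served as a check and to choose the libraries. Gene annotation, strand setting and treatment of multiply aligned reads are not given in the sources used here.

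Genotypes came from the labels, which give no batch, sex or litter. The 12 libraries were fitted together in R 4.3.3 with edgeR 4.0.16 (filterByExpr, minimum count 10, TMM, glmQLFit and glmQLFTest, Benjamini-Hochberg over 13136 genes, threshold 0.05), checked on simulated counts. DESeq2 1.42.0, other scalings and filters, WT mouse 11 and leaving out each mouse were alternatives. Levels are CPM on TMM-scaled totals, divided by merged exon length of GENCODE vM21 (24490 genes matched) only to compare genes. Libraries of 1 genotype differed beyond sampling noise (chi-square per degree of freedom of 30.0 or more). The members and all gene lists were chosen with earlier results of these data known. Named genes were the 10 members, 8 fixed signalling genes with the 3 others of smallest adjusted p-value per list and comparison, the 3 genes of highest correlation per member, and cell type markers. Some signalling genes that this rule names are counted but not reported here. Figures were drawn with Python 3.11.15 and matplotlib 3.10.9.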

Additional observations from a re-analysis of the deposited data

Results flagged for a closer look

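The mice outside the comparisons carried several members above the highest of the 4 WT mice. WT mouse 11 had 99.4 CPM of *Clec4a1*, 268.7 CPM of *Clec4a3*, 19.3 CPM of *Clec4d* and 57.1 CPM of *Clec12a*, against WT maxima of 88.6, 249.8, 19.1 and 52.7 CPM. CCR2KO mouse 6 had 287.4 CPM of *Clec4n* and 358.0 CPM of *Clec7a*, against 239.6 and 355 CPM, in single libraries that allow no test. WT mouse 11 was the shallowest library (12153000 reads, 11670 genes with a read against 13485 to 15402 in the 4 WT mice), held 2339 CPM of epithelial markers against 41.8 to 902 CPM, and had 22.8 CPM of *Clec4e*, below the 4 WT mice. Over 40 sets of levels (10 members in the 3 genotypes, and in WT again with mouse 11), 0 held a mouse far from the others by Dixon's criterion, which chance alone meets in about 5% of sets.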

How the results depend on the processing

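No paired analysis was possible because the genotypes hold different mice with no shared numbers. Over 22 alternatives (21 for *Clec9a*, which the filter of 10 reads in every library removed), the 7 members that rose and the decrease of *Clec4a2* kept their direction against WT. The call of *Clec9a* was lost in 7 alternatives in IL10RAKO and 5 in DKO mice, among them a fit of only the genotypes compared (adjusted p = 0.0888 and 0.0655) and, in IL10RAKO, no TMM scaling (1.53, adjusted p = 0.0548). *Clec4a3* did not reach an absolute log2 fold change of 1 in DKO mice. Leaving out 1 mouse gave 6 to 8 members called in IL10RAKO, 8 to 9 in DKO and 0 between them. All genes called ranged from 1485 to 2554, 1691 to 2995 and 4 to 10 (10 without IL10RAKO mouse 2), signalling genes from 7 to 13, 5 to 10 (5 without WT mouse 10 or DKO mouse 9) and 0, and other lectins from 10 to 13, 12 to 15 and 0.

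When an absolute log2 fold change of 1 or more was also required, all genes called were 1366 in IL10RAKO and 1586 in DKO mice, and signalling genes 2 and 4, since fewer genes meet the added bound. With 10 reads in every library, 7 other lectins were called in IL10RAKO mice, of 14 tested. Between DKO and IL10RAKO mice, DESeq2 called 24 genes and 2 other lectins, and the cause was not tested. In that comparison small log2 differences, none of which had passed, changed sign. Leaving out 1 mouse gave -0.0195 to 0.323 for *Clec4a1* (negative without DKO mouse 14), -0.0046 to 0.466 for *Clec4d* (negative without IL10RAKO mouse 1), -0.385 to 0.274 for *Clec4e* (positive without IL10RAKO mouse 2), -0.0172 to 0.136 for *Clec9a* (negative without DKO mouse 3 or IL10RAKO mouse 1) and -0.130 to 0.151 for *Clec12a* (positive without DKO mouse 3 or 12 or IL10RAKO mouse 2 or 8). Without TMM scaling *Clec12a* had 0.0471.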
